A study of Homo sapiens with 27 samples.

Results

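Gene deserts are long stretches of a chromosome without protein-coding genes. Here they were taken as every stretch of an autosome lying 200 kb or more from the bounds of all protein-coding genes in the RefSeq annotation of GRCh38.p14. This gave 806 deserts with a median length of 0.383 Mb, each named below by its 2 flanking coding genes. Of 5255296 insertion sites listed on the autosomes of HCT116 cells in 27 libraries, 467204 lay in a desert. They fell on 308159 distinct positions, of 2884349 distinct autosomal positions. The rule used only genome annotation and no insertion value, so the site shares, heights and group differences below are measurements independent of it.

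PiggyBac is a cut-and-paste DNA transposon whose transposase inserts it at the tetranucleotide TTAA, which is duplicated at the insertion. In mammalian cells piggyBac is known for inserting often near transcription start sites and in open chromatin. Gene deserts hold few genes and much closed, AT-rich chromatin, but some carry distant enhancers of the developmental genes that flank them. The transposon used here is self-reporting: transcription starts inside it and runs into the neighbouring genome, so that RNA tells its position.

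HCT116 is an established line of human colorectal carcinoma. The cells were transfected with such a transposon and a transposase, then selected with puromycin (3 µg/ml) over 2 weeks. There were 9 groups of 3 replicates. In 5 groups the transposon was wild-type. Its transposase was wild-type piggyBac in WT_PB, the hyperactive form in WT_hyPB, the re-engineered form in WT_rePB and the form with both changes in WT_rehyPB. In WT_PBat it was piggyBat, a related transposase from a bat. A short transposon was used in short_PB (wild-type piggyBac) and short_hyPB (hyperactive). Sym_rePB and sym_rehyPB had a symmetric transposon, with the re-engineered form and with the one carrying both changes. The labels do not define the words short, symmetric and re-engineered, nor do they say whether the wild-type transposon of WT_PBat was that of WT_PB. They also do not say whether replicates came from separate cultures, so the p-values below measure the spread between these samples, which may be technical.

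The sequence around the insertions could be read where a desert position fell into a RefSeq promoter window of a noncoding gene. Of 431 such desert positions, 419 (97.2%) started a TTAA, as did 7996 of 8540 positions outside deserts (93.6%). Among those listed in 5 or more libraries the counts were 39 of 39 and 2119 of 2126 (99.7%). The 40 bases flanking the target were 60.8% A or T at 376 desert positions and 53.0% at 6902 other positions. Of the desert positions of this kind listed in the most libraries, 5 follow, to show the target and its surroundings. They are from RefSeq, GRCh38.p14, plus strand, 5′ to 3′, with the TTAA target in capitals and 20 bases on either side.
LOC105379083 target: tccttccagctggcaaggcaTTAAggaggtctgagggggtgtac
LOC105369846 target: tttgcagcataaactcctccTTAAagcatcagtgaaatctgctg
LOC105379082 target: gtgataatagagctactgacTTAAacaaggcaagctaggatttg
LOC105373709 target: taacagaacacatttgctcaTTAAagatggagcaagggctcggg
LINC02058 target: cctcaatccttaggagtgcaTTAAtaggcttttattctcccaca

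All 5 targets are named after the long noncoding RNA gene of their promoter window. The LOC105379083 target lay inside that gene and near neither of its bounds. Distances from the targets to transcript starts are not given. The LOC105379083 target at chr5:93162480-93162483, in the desert between ARRDC3 and NR2F1, was listed in 17 libraries of 8 groups and lay 420742 bases from the nearest coding gene. The same desert held the LOC105379082 target (chr5:92688334-92688337) and the LINC02058 target (chr5:92939772-92939775), each listed in 10 libraries of 4 groups. The LOC105369846 target (chr12:75781528-75781531), between KRR1 and PHLDA1, was listed in 14 libraries of 6 groups. The LOC105373709 target (chr2:157033239-157033242), between GPD2 and GALNT5, was listed in 10.

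Depth differed between 2 sets of groups. The file totals, taken as reads, were 8118085 to 12051190 in the 12 libraries of the wild-type transposon with a piggyBac, and 142666 to 256608 in the other 15. Each of the 12 libraries listed 28426 to 52058 desert sites, and each of the 15 listed 61 to 342. Some libraries shared more positions than others. WT_hyPB replicates 1 and 2 shared 26174 desert positions, 73.4% and 74.4% of their lists, whereas either shared at most 20.4% of its list with replicate 3. WT_PBat replicates 1 and 3 shared 30 desert positions (44.8% and 38.5%), and replicate 2 shared 2 with each. These libraries are called linked below, and the tests were also run with each linked pair averaged as 1 sample.

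Deserts covered 501.7 Mb of the 2674 Mb of autosomal sequence in which sites were found, or 18.8%. They held fewer sites than this length in every library (the plot of desert share by library). In WT_PB 9.20%, 9.62% and 9.28% of autosomal sites lay in deserts in the 3 replicates. WT_hyPB gave 8.76% ± 0.09 (SD, n = 3), WT_rePB 9.25% ± 0.17 and WT_rehyPB 8.55% ± 0.10. The short transposon gave 3.78% ± 0.04 with piggyBac and 3.33% ± 0.13 with the hyperactive form. With the symmetric transposon the shares were 2.36% ± 0.14 (sym_rePB) and 2.29% ± 0.08 (sym_rehyPB). The lowest share was that of piggyBat, at 0.947%, 0.902% and 0.896% in the 3 libraries.

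**Figure D1:**
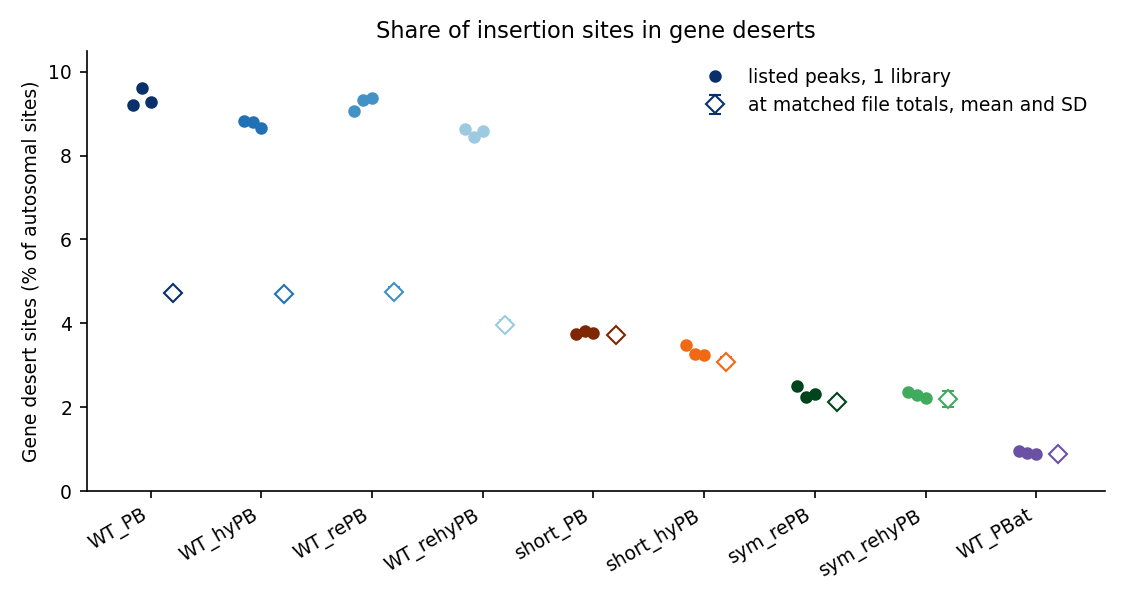
The percentage of a library's autosomal insertion sites that lay in gene deserts, by group: filled points are the 3 libraries of a group with all listed peaks, and open diamonds are the group mean and SD (n = 3) expected at matched file totals. The matched total is 142666 reads for WT_PBat and 179014 reads for the other groups. The 4 groups of the wild-type transposon with a piggyBac lie between 8.44% and 9.62% as listed, all other libraries lie below 4%, and the matched values of the 4 deep groups are 3.97% to 4.76%.

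Because depth differed between the groups, shares were also computed at matched file totals: each peak was given its chance of still reaching the lowest listed height of 5 after its library was thinned to the smallest total of the comparison. At 179014 reads the share was 4.72% ± 0.05 (WT_PB), 4.70% ± 0.08 (WT_hyPB), 4.76% ± 0.11 (WT_rePB) and 3.97% ± 0.11 (WT_rehyPB). These shares rest on few, tall peaks. The expected sites per library were 758, 716, 299 and 908 in that order, compared with 8260 in short_PB. Of these, 35.8, 33.6, 14.2 and 36.2 lay in deserts in the 4 deep groups. The SDs are spreads of expected values and leave out the sampling of so few sites. The shallow libraries moved less, with 3.72% ± 0.09 in short_PB and 3.09% ± 0.12 in short_hyPB. At 142666 reads piggyBat stood at 0.881% ± 0.069 and WT_PB at 4.69% ± 0.04.

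Each component was then compared over the pairs of groups whose labels differ in it alone. The short, symmetric and piggyBat pairs also differed in depth, which cannot be told apart from the component there. A two-sided exact permutation test over samples was used, with Benjamini-Hochberg adjustment over 20 tests (4 measures, 5 comparisons). The comparisons share groups and are not independent. The hyperactive forms had a lower desert share than their parents by 0.458 percentage points on average over 4 pairs (mean difference -0.458, exact p = 7.5e-05, adjusted p = 0.0015). The drop was 0.610 points for WT_hyPB (difference -0.610), 0.703 for WT_rehyPB (-0.703) and 0.450 for short_hyPB (-0.450), each without overlap between the groups. For sym_rehyPB it was -0.0695 with overlap. With linked libraries averaged the mean difference was -0.465 (exact test, adjusted p = 0.00175), and at matched totals it was -0.346 (adjusted p = 0.0125), where the pair of WT_hyPB and WT_PB differed by -0.0198. Re-engineering gave -0.162 points over 2 pairs, which did not pass (exact test, adjusted p = 0.118).

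As listed, the desert share differed more between transposon forms than between the hyperactive or re-engineered forms of piggyBac and their parents. Depth differed along with the transposon form, and the design cannot tell them apart. The short transposon had 5.51 points less than the wild-type transposon (difference -5.51 over 2 pairs, exact p = 0.005, adjusted p = 0.01), and the symmetric transposon differed by -6.57 points (exact p = 0.005, adjusted p = 0.01). The p of 0.005 is the smallest that 2 pairs of 3 against 3 allow. At matched totals these differences were -1.30 and -2.14 points (exact test, adjusted p = 0.0125 for both) and thus smaller than as listed. The smallest drop of a transposon pair was then -0.993 points (short_PB against WT_PB). The largest drop of a hyperactive pair was -0.787 (WT_rehyPB against WT_rePB). PiggyBat differed from piggyBac by -8.45 points as listed and -3.81 at matched totals, in both cases without overlap between 3 and 3 libraries, and the exact p of 0.1 is the smallest this pair can give.

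Beyond 10 kb from coding genes the mean density of sites fell with each distance class (the plot of density by distance), except between the last pair of classes in piggyBat. Relative to the library average, WT_PB had a density of 1.12 ± 0.01 inside coding genes and 1.56 ± 0.01 within 10 kb of them. It was 0.813 ± 0.010 at 100 to 200 kb, 0.587 ± 0.012 at 200 to 500 kb, 0.407 ± 0.013 at 500 kb to 1 Mb and 0.355 ± 0.012 beyond 1 Mb. As listed, the shallow groups were steeper at both ends. Depth differed along with these groups and cannot be told apart from them here, and no densities at matched totals are given. Short_PB reached 2.49 within 10 kb, and 0.292, 0.0963 and 0.0616 in the 3 desert classes. Sym_rehyPB reached 2.96 ± 0.07 within 10 kb, and 0.194, 0.0375 and 0.0144 in deserts, the last from 1 or 2 sites per library. PiggyBat had the highest density inside genes, 1.39 ± 0.01, and 0.0769, 0.0130 and 0.0136 in deserts.

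**Figure D2:**
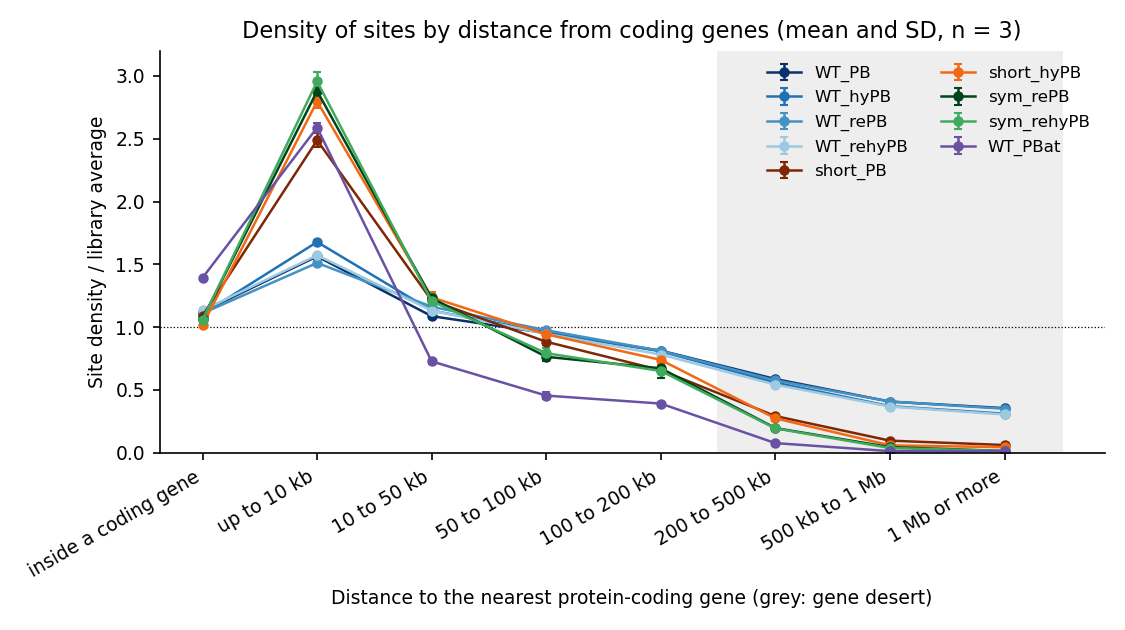
Site density relative to the library average (1, dotted line) by distance to the nearest protein-coding gene, for the 9 groups; points and bars are means and SD of 3 libraries, and the grey field marks gene deserts. As listed, every group peaks within 10 kb of a gene (1.51 to 2.96) and declines into the deserts. There the 4 deep groups stay at 0.305 to 0.587 and the others at 0.292 or less.

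The limit of 200 kb was no step for the deep groups. WT_PB had a relative density of 0.754 at 150 to 200 kb and 0.688 at 200 to 250 kb. The same classes gave 0.550 and 0.400 in short_PB, 0.559 and 0.283 in sym_rePB, and 0.446 and 0.108 in piggyBat, the last from 19 to 24 sites per library. These values are as listed, at unlike depths, and are given without a test.

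Peak height, the maximal read coverage of a peak, was lower in deserts than elsewhere as listed. The geometric mean height in WT_PB was 11.5 ± 0.6 in deserts and 13.6 ± 0.7 at other sites (n = 3). Peaks of height 50 or more made up 3.35% ± 0.51 of desert sites and 6.68% ± 0.95 of other sites in this group. Taken as the mean log2 height of desert sites minus that of the other sites of the same library, the difference averaged -0.15 over the 9 groups (SD 0.09). It was below 0 in 9 of 9 groups and in 25 of 27 libraries (exact sign-flip permutation test over groups, p = 0.00391, the smallest that 9 groups allow). The exceptions were sym_rehyPB replicates 1 and 2, at 0.0087 and 0.011. With deserts taken from 100 kb the mean over groups was -0.068 and no longer passed. At 179014 reads, where 8 groups were compared, the mean was -0.0026 in WT_PB, and above 0 in WT_hyPB (0.0073), WT_rePB (0.0029) and sym_rehyPB (0.020). The listed sign was therefore not shared by all groups at matched totals.

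The difference was -0.24 ± 0.01 in WT_PB, -0.22 ± 0.02 in WT_hyPB, -0.11 ± 0.02 in short_PB, -0.05 ± 0.03 in sym_rePB and -0.20 ± 0.01 in WT_PBat. It was thus closest to 0 in the symmetric groups as listed. The short-transposon comparison gave +0.14 and the symmetric one +0.19 (exact permutation test, adjusted p = 0.01 for both). At matched file totals both signs turned: -0.09 (adjusted p = 0.0125) and -0.01 (adjusted p = 0.476). For piggyBat the listed +0.04 became -0.18 (exact p = 0.1 for both). The sign of these comparisons thus differed between the listed values and those at matched totals, and the cause was not tested. At 179014 reads a library kept 35.8 expected desert sites on average in WT_PB and 308 in short_PB. The hyperactive forms differed by +0.03 (adjusted p = 0.0119), a call that was lost at matched totals (+0.01, adjusted p = 0.133).

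In WT_PB a smaller share of tall peaks lay in deserts, but more of those lay in a few deserts. There, 11.3% ± 0.3 of sites of height 5 or 6 were in deserts, 9.60% ± 0.38 of those of height 10 to 19, and 4.93% ± 0.18 of those of height 50 or more. Of the WT_PB desert sites, the 3 deserts KITLG-DUSP6, TRIB1-LRATD2 and KRR1-PHLDA1 held 1.37% ± 0.07 at height 5 or 6, 12.3% ± 1.3 at height 50 or more and 27.7% ± 1.4 at height 100 or more (138 to 148 desert sites per library in the last class). Their share of desert length was 0.238%. The 3 deserts were chosen for the highest mean share of autosomal sites over the 9 groups, WT_PB included. Their high share is therefore not independent of that choice, and no test was made.

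The nearness of desert sites to each other differed between the groups as listed. No value for evenly spread sites is given. To set all libraries to equal numbers, the expected share of sites with another desert site within 10 kb was computed for 61 desert sites, the count of the smallest library. WT_PB had a clustered share of 0.999% ± 0.018, WT_hyPB of 1.21% ± 0.01, WT_rePB of 0.768% ± 0.019 and WT_rehyPB of 0.925% ± 0.019. The short transposon reached 11.2% ± 1.3 with piggyBac and 28.9% ± 4.7 with the hyperactive form. The symmetric transposon reached 35.0% ± 3.6 and 41.7% ± 3.5 (hyperactive), and piggyBat 12.05% ± 4.21.

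The hyperactive forms had the higher clustered share in all 4 pairs, by 0.215 and 0.157 points with the wild-type transposon, 17.7 points with the short and 6.70 points with the symmetric transposon, where the groups overlapped (mean 6.19, exact permutation test, adjusted p = 0.00438). With linked libraries averaged the adjusted p of this exact test was 0.00688. The call was lost with heights of 10 or more (2.95 points), with deserts taken from 500 kb (1.53) and with neighbours within 100 kb (5.71). Re-engineered forms were lower by 0.260 points in both pairs on average (difference -0.260, exact permutation test, adjusted p = 0.01). The short transposon was higher by 18.9 points and the symmetric by 37.5 points (exact permutation test, adjusted p = 0.01 for both), and piggyBat by 11.0 points (exact p = 0.1, the smallest possible).

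Depth moved with these values. A second measure, the number of near pairs per 10000 pairs of desert sites of a library, was computed after the data were seen, as listed and with all libraries thinned to 142666 reads. As listed, WT_PB had 1.70 ± 0.03, short_PB 27.7 ± 5.0, short_hyPB 99.9 ± 34.2, sym_rePB 141 ± 2, sym_rehyPB 246 ± 63 and WT_PBat 31.6 ± 8.4. When thinned, the values were 164 ± 42 for WT_PB, 301 ± 4 for WT_hyPB, 207 ± 36 for WT_rePB and 87.6 ± 56.9 for WT_rehyPB. The others then had 37.9 ± 5.0 (short_PB), 166 ± 46 (short_hyPB), 340 ± 171 (sym_rePB), 384 ± 87 (sym_rehyPB) and 33.1 ± 9.8 (WT_PBat). At matched totals WT_PB thus lay above short_PB and piggyBat, and WT_hyPB above short_hyPB, without overlap and opposite to the listed order. The order of a hyperactive pair turned as well: WT_rehyPB (26.5 to 139) lay below WT_rePB (172 to 244) without overlap, whereas as listed it lay above. WT_rePB and sym_rePB overlapped, and sym_rehyPB stayed above WT_rehyPB. The thinned values rest on few expected desert sites, 6.24 per library in WT_rePB and 16.3 in WT_rehyPB. Their ranges are those of expected values and leave out the sampling of so few sites. No test was made on this measure.

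The sites gathered in a few deserts. The 5 with the highest mean share of autosomal sites over the 9 groups were chosen by that value and are described without a test. KITLG-DUSP6 (chr12:88780471-89147235, 0.367 Mb) lies between the gene of KIT ligand, a growth factor of stem cells and melanocytes, and that of a phosphatase of ERK kinases. TRIB1-LRATD2 (chr8:125638403-126352443, 0.714 Mb) starts beyond TRIB1, which encodes a pseudokinase that brings proteins to a ubiquitin ligase. KRR1-PHLDA1 (chr12:75711609-75825447, 0.114 Mb) lies wholly inside the long noncoding RNA gene LOC105369844. NYAP2-IRS1 (chr2:225903654-226531312, 0.628 Mb) neighbours the gene of insulin receptor substrate 1. ARRDC3-NR2F1 (chr5:91583317-93383222, 1.80 Mb) neighbours the gene of the nuclear receptor COUP-TFI. All 5 together made up 0.722% of desert length.

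KITLG-DUSP6 held 365, 307 and 359 sites in the 3 WT_PB libraries, or 8.75 ± 0.26 per 10000 autosomal sites. In WT_hyPB it held 394, 382 and 418 (9.57 ± 0.16 per 10000), in WT_rePB 373, 432 and 403 (7.42 ± 0.43) and in WT_rehyPB 270, 299 and 323 (8.08 ± 0.32). As listed, the shallow piggyBac libraries held more per 10000 sites: 22, 25 and 15 sites in short_PB (22.999 ± 5.909), 25, 32 and 27 in short_hyPB (39.2 ± 6.9), 9, 10 and 10 in sym_rePB (32.1 ± 3.7) and 20, 20 and 18 in sym_rehyPB (48.0 ± 7.2). PiggyBat had 4, 3 and 6 sites (5.66 ± 1.23 per 10000), the lowest mean of the 9 groups. Every piggyBac library of the short and symmetric transposons lay above every wild-type transposon library as listed. At matched totals of 142666 reads this was not so for short_PB. KITLG-DUSP6 then held 6.48% to 8.32% of desert sites in short_PB and 13.8% to 18.7% in WT_PB, the opposite order without overlap. In short_hyPB (13.2% to 19.6%) it stood below WT_hyPB (22.1% to 23.3%), and in sym_rehyPB (25.4% to 27.95%) above WT_rehyPB (5.15% to 15.9%). Matched values of single deserts, here and below, rest on few expected desert sites, 16.8 per library in WT_PB. Their ranges leave out the sampling of so few sites.

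As listed, TRIB1-LRATD2 and KRR1-PHLDA1 also stood higher in the short and symmetric libraries than in any wild-type transposon library with a piggyBac, while piggyBat overlapped the latter. TRIB1-LRATD2 held 269, 229 and 250 sites in WT_PB (6.36 ± 0.34 per 10000 autosomal sites), 13, 8 and 8 in sym_rePB (31.7 ± 8.0) and 7, 3 and 8 in WT_PBat (7.84 ± 2.97). KRR1-PHLDA1 held 286, 236 and 270 sites in WT_PB (6.72 ± 0.20 per 10000), 24, 20 and 19 in short_hyPB (29.3 ± 3.5) and 6, 2 and 4 in WT_PBat (5.34 ± 2.83). Per length it was the densest of the 5, with 2324 sites per Mb and library over the 12 deep libraries, compared with 983 in KITLG-DUSP6 and 394 in TRIB1-LRATD2. At matched totals TRIB1-LRATD2 held 4.398% to 5.571% of desert sites in short_PB, below the 5.75% to 5.89% of WT_PB, but 17.6% to 20.4% in sym_rePB, above the 7.25% to 9.95% of WT_rePB. KRR1-PHLDA1 held 4.39% to 5.34% in short_PB and 4.57% to 6.11% in WT_PB, which overlapped.

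The remaining pair of deserts did not share that listed order. NYAP2-IRS1 held 715, 594 and 662 sites in WT_PB (16.7 ± 0.7 per 10000 autosomal sites), 13, 12 and 10 in short_PB (13.0 ± 1.8) and 0, 3 and 5 in sym_rePB (8.94 ± 8.19). It had none in the 3 piggyBat libraries. ARRDC3-NR2F1 held 612, 482 and 526 sites in WT_PB (13.7 ± 0.9 per 10000), 3, 6 and 8 in short_PB (6.29 ± 2.77), 0, 1 and 0 in sym_rePB and 1, 1 and 0 in WT_PBat.

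As a share of all desert sites, the 5 deserts held 5.59% ± 0.16 of those of WT_PB, 6.52% ± 0.03 of WT_hyPB, 4.68% ± 0.09 of WT_rePB and 5.55% ± 0.25 of WT_rehyPB. The shallow groups had 20.6% ± 1.5 (short_PB), 36.0% ± 4.0 (short_hyPB), 38.3% ± 2.6 (sym_rePB), 44.5% ± 1.8 (sym_rehyPB) and 21.6% ± 6.2 (WT_PBat). With every library thinned to 142666 reads the wild-type transposon groups reached the same range: 41.7% ± 3.0 (WT_PB), 52.3% ± 3.1 (WT_hyPB), 43.8% ± 0.9 (WT_rePB) and 33.3% ± 8.2 (WT_rehyPB). Short_PB had 22.6% ± 1.0, below every library of WT_PB, and sym_rehyPB had 52.5% ± 4.1. The listed gap between deep and shallow groups was thus not seen at matched totals. Thinned values rest on few expected desert sites, 6.24 per library in WT_rePB and 16.8 in WT_PB.

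**Figure D3:**
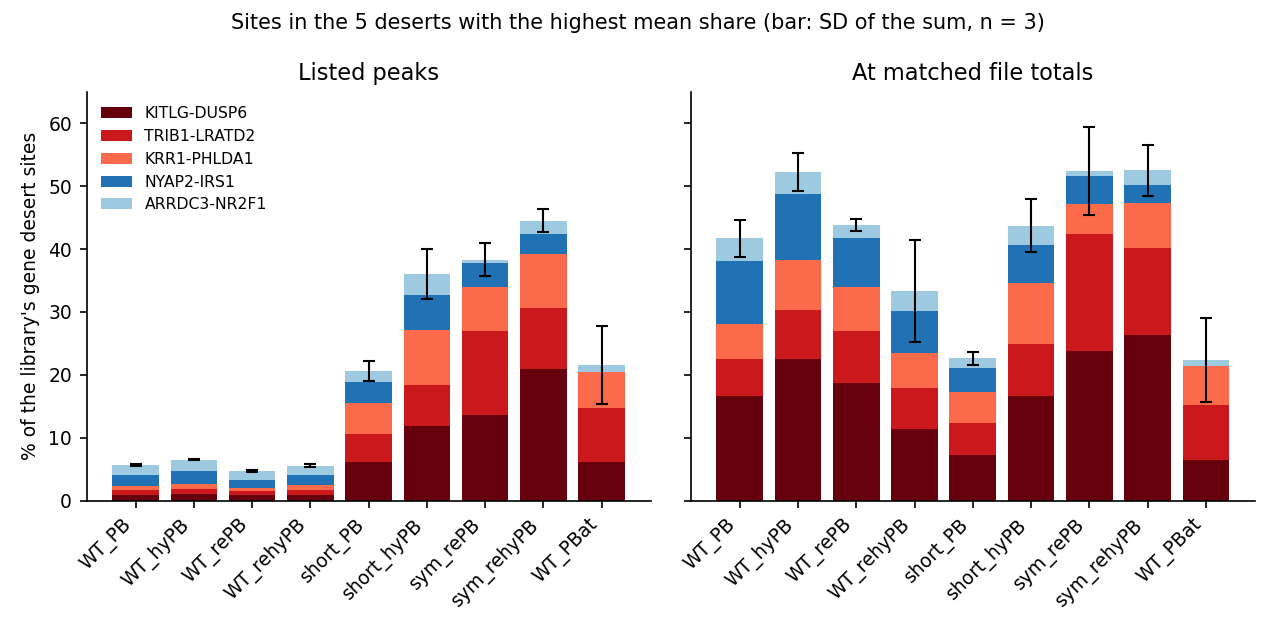
The percentage of a library's gene desert sites that lay in each of the 5 deserts with the highest mean share (stacked), by group, as listed (left) and expected at matched file totals (right); bars are means of 3 libraries and error bars the SD of the sum. As listed, the 4 deep groups stand at 4.68% to 6.52% and the others at 20.6% to 44.5%, whereas at matched totals the deep groups reach 33.3% to 52.3%.

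Within these deserts the sites lay in narrow zones (the plot of sites along 3 deserts). The densest 100 kb of KITLG-DUSP6, chr12:88880471-88980470, was 27.3% of the desert but held 66.6% of its 1031 WT_PB sites and 56.7% of its 1208 WT_rePB sites. It held 58 of 62 sites in short_PB, 29 of 29 in sym_rePB, 57 of 58 in sym_rehyPB and 10 of 13 in WT_PBat, the 3 replicates of a group summed. In TRIB1-LRATD2 the 100 kb nearest TRIB1 (14.005% of its length) held 56.3% of the 748 WT_PB sites, all 29 sym_rePB sites, all 27 sym_rehyPB sites and 16 of 18 WT_PBat sites. In ARRDC3-NR2F1 the densest 100 kb, chr5:93083317-93183316, which contains the LOC105379083 target shown above, held 14.8% of the WT_PB sites in 5.56% of the length.

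**Figure D4:**
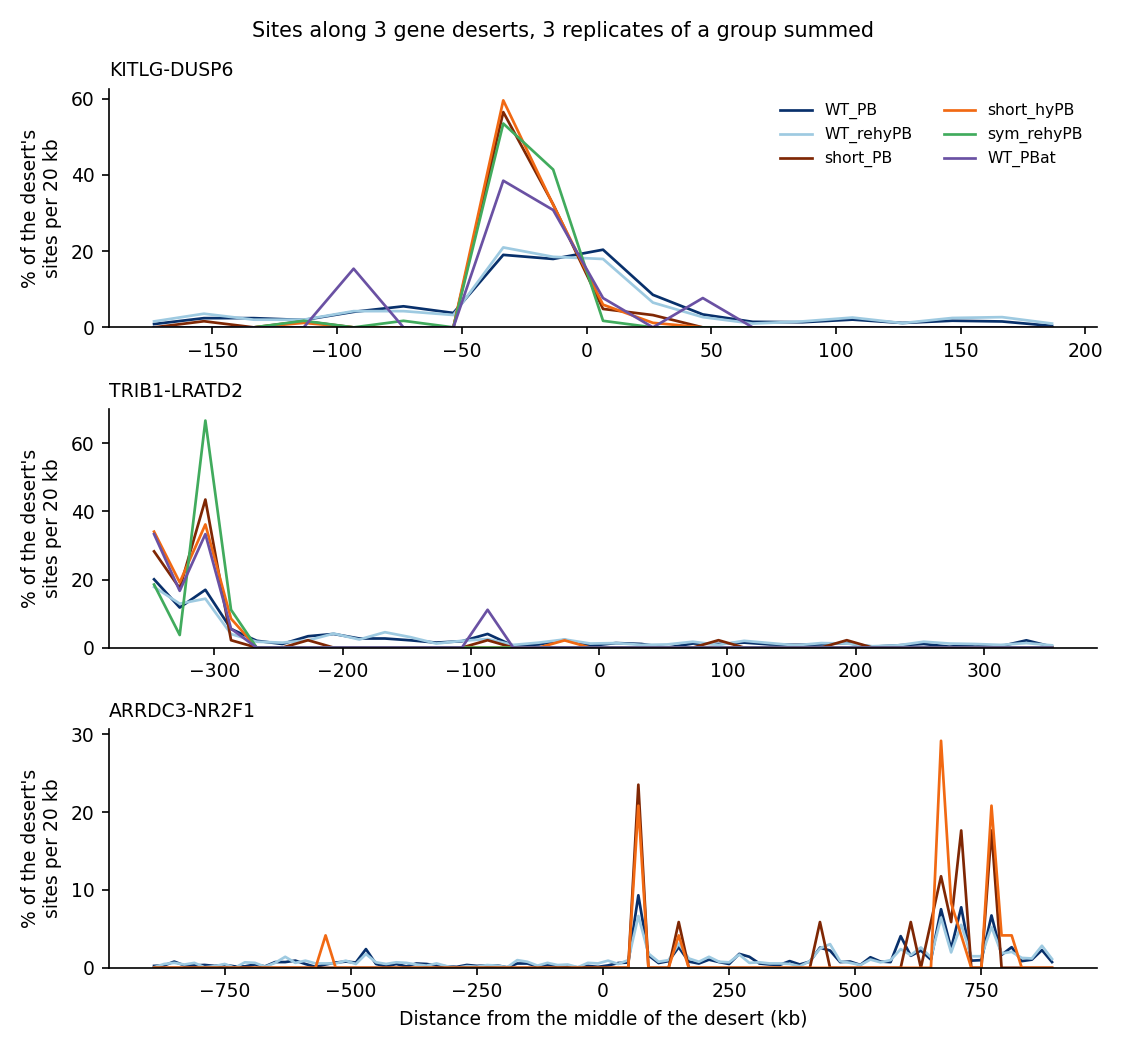
Sites along the deserts KITLG-DUSP6, TRIB1-LRATD2 and ARRDC3-NR2F1, as the percentage of a group's sites in that desert per 20 kb, against distance from the middle of the desert in kb; each line is 1 of 6 groups drawn (WT_PB, WT_rehyPB, short_PB, short_hyPB, sym_rehyPB and WT_PBat) with its 3 replicates summed, and those of the 6 with fewer than 10 sites in a desert are left out. In KITLG-DUSP6 the highest point of all 6 lies in the densest 100 kb, which holds 93.5% to 98.3% of the sites of the short_PB, short_hyPB and sym_rehyPB groups.

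Single positions also recurred. Of the 308159 distinct desert positions, 83297 were listed in 2 or more libraries, 9390 in 5 or more, 1423 in 10 or more and 56 in 15 or more. Only 3 were listed in all 9 groups. Linked libraries count separately in these numbers, and WT_hyPB replicates 1 and 2 alone shared 26174 desert positions. Of the 56, 13 lay in KITLG-DUSP6, 13 in TRIB1-LRATD2, 5 in SOX9-SLC39A11 and 3 in KRR1-PHLDA1. The 5 positions listed in the most libraries were all on chromosome 8. The first, at 125697835 in TRIB1-LRATD2, was listed in 23 libraries and all 9 groups, with heights of 69 to 74 in WT_PB, 71 to 95 in WT_hyPB, 8 to 24 in short_PB and 9 in the 1 piggyBat library that listed it. The position at 29770854, between DUSP4 and SARAF and inside the noncoding gene LINC02099, was listed in all 12 deep libraries and 11 others, with heights of 12 to 55 in WT_PB. The 3 others were listed in 21 or 22 libraries. Between unlinked replicates of a group, 14.3% ± 0.7 of WT_PB desert sites recurred at the same base, compared with 21.96% ± 1.67 of its other sites.

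Deserts of similar length differed widely in density (the plot of density against length). Over the 168 deserts with 1 Mb or more of length with sites, the 12 deep libraries had a median of 55.5 sites per Mb and library, with 1.298 at the 10th percentile and 130 at the 90th. Fewer than 10 were found in 56 of them and more than 200 in 7. The 5 densest were ARRDC3-NR2F1 with 328 sites per Mb and library, DPPA4-NECTIN3 with 275, MMP16-RIPK2 with 252, SLC4A3-EPHA4 with 229 and KCNJ2-SOX9 with 221. KCNJ2-SOX9 (chr17:70380044-71921020) lies upstream of the gene of SOX9, a transcription factor of cartilage, testis and intestinal crypts, and is known for distant SOX9 enhancers. It held 349, 285 and 329 sites in WT_PB (8.17 ± 0.20 per 10000 autosomal sites), 446, 467 and 424 in WT_rePB, 1, 0 and 0 in short_PB and none in the 6 symmetric and 3 piggyBat libraries. DPPA4-NECTIN3 held 350, 311 and 350 sites in WT_PB, 4, 7 and 4 in short_hyPB and none in piggyBat.

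The 5 least dense of these deserts, chosen after the data were seen, were nearly empty. TMPRSS15-NCAM2 on chromosome 21 had 0.442 sites per Mb and library, LOC124901178-CDH6 on chromosome 5 had 0.492, NCAM2-MRPL39 on chromosome 21 had 0.667, OLFM4-LOC124903233 on chromosome 13 had 0.728 and LRRTM4-REG3G on chromosome 2 had 0.755. TMPRSS15-NCAM2 held 0, 1 and 1 sites in WT_PB and 0, 0 and 2 in WT_hyPB. LRRTM4-REG3G held 0, 1 and 2 in WT_PB and none in the 3 WT_rehyPB libraries. None of the 15 shallow libraries listed a site in any of the 5. The flanking genes NCAM2, CDH6 and LRRTM4 encode adhesion and synapse proteins, OLFM4 and REG3G secreted gut proteins, and TMPRSS15 the protease enteropeptidase.

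**Figure D5:**
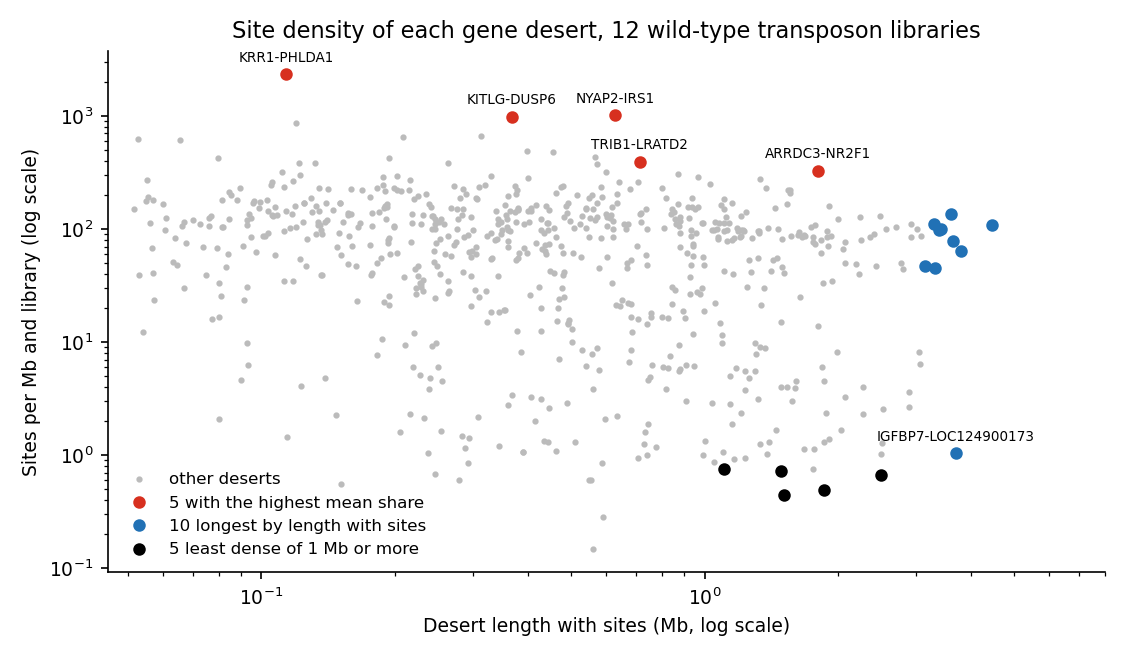
Sites per Mb and library in the 12 libraries of the wild-type transposon with a piggyBac (log scale) against desert length with sites in Mb (log scale); each point is 1 desert with more than 0.05 Mb and at least 1 site. Density spans from under 1 to 2324 (KRR1-PHLDA1), and among the longest deserts IGFBP7-LOC124900173 stands at 1.04 while AGA-TENM3 stands at 137.

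The largest deserts by annotation were mostly sequence without sites. The longest, LINC02798-H3-7 at chr1:121663129-143702386, measured 22.04 Mb, of which 21.5 Mb lay in runs of 500 kb or more without a site in any library. Such runs added to 178 Mb in 36 deserts, and 24 deserts had no site. The other 9 of the 10 longest lay on chromosomes 7, 9, 13, 14, 15, 16, 17, 18 and 22. Some of these are bounded by coding genes that the table places on scaffolds apart from the chromosome, such as GSTT1 and BAGE5, so their bounds are uncertain. Tests of the share of each of these 10 deserts (exact permutation tests, 50 adjusted together) called none for the hyperactive forms, for which 0 of 10 is 0%, 1 higher for re-engineering (KCNJ18-WSB1, 10%), 4 lower for the short transposon (40%), 5 lower for the symmetric transposon (50%) and none for piggyBat, where the design cannot pass. The KCNJ18-WSB1 call for re-engineering was lost (0 called) with linked libraries averaged, with heights of 10 or more, and without WT_PB replicate 2 or 3, any 1 replicate of WT_hyPB or WT_rePB replicate 2. The short-transposon count was 2 with heights of 10 or more and without short_PB replicate 1 or 3. The called differences were -0.0482 to -0.287 sites per 10000 autosomal sites for the short transposon and -0.0675 to -0.277 for the symmetric transposon. At the wild-type transposon's rate a short or symmetric library can list no site in such a desert as well. These short and symmetric calls therefore cannot show a lower rate.

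The 10 longest by length with sites, a ranking made after the data were seen, ran from 4.46 Mb (PCDH7-ARAP2, chr4:31346800-35805404) to 3.14 Mb (SPRY2-SLITRK1). PCDH7-ARAP2 held 459, 374 and 418 sites in WT_PB (10.6 ± 0.4 per 10000 autosomal sites), 1, 2 and 1 in short_PB and 1, 0 and 1 in WT_PBat. AGA-TENM3 (chr4:177642437-181247613, 3.61 Mb) held 650, 564 and 668 sites in WT_PB (15.99 ± 0.73 per 10000) but 408, 402 and 398 in WT_hyPB (9.71 ± 0.63), 590, 648 and 620 in WT_rePB (11.4 ± 0.4) and 292, 306 and 379 in WT_rehyPB (8.82 ± 0.26). TENM3 encodes a teneurin, an adhesion receptor of neurons. AGA-TENM3 had no site in the 6 symmetric and 3 piggyBat libraries. IGFBP7-LOC124900173, which at 3.69 Mb is about as long, held 8, 4 and 5 sites in WT_PB.

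Of these 10, 4 were lower with the hyperactive forms (40%; exact permutation tests, 50 adjusted together). AGA-TENM3 differed by -2.85 sites per 10000 on average over 4 pairs and C4orf33-PCDH10 by -1.20 (adjusted p = 0.0109 for both), NUDT12-EFNA5 by -0.494 (adjusted p = 0.0481) and SLITRK5-GPC5 by -0.318 (adjusted p = 0.03). With linked libraries averaged 2 were called, and likewise without WT_PB replicate 2, WT_hyPB replicate 2 or 3, or any 1 replicate of short_hyPB. Re-engineering lowered AGA-TENM3 by 2.73 sites per 10000 (difference -2.73, adjusted p = 0.0208) and raised CTNNA2-SUCLG1 by 1.37 (adjusted p = 0.0109; 10% each way, exact permutation tests). All 10 were lower with the short and with the symmetric transposon (100%, exact permutation tests, adjusted p = 0.0109 for each). The desert share as a whole was also lower, by -5.51 and -6.57 points as listed. For IGFBP7-LOC124900173 the short-transposon difference was -0.115 sites per 10000. A short or symmetric library can list no site there at the wild-type transposon's rate as well, so that call cannot show a lower rate. No values at matched totals are given for these 10. For piggyBat none passed, since its smallest p is 0.1.

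Single deserts were compared with limma over the 12 deep libraries, on log2 of sites per 10000 autosomal sites with a pseudocount of 0.5 sites, for the 495 deserts with a mean of 10 or more sites. The hyperactive forms changed 40 deserts (8.08% of 495) at an adjusted p under 0.05, of which 39 were lower (7.88%) and 1 was higher (0.202%). At an unadjusted p under 0.05 there were 131 (26.5%), and the median log2 difference of all 495 was -0.10, which follows the lower desert share of these forms. Counted per 10000 desert sites in place of autosomal sites, 8 deserts passed, 2 higher and 6 lower, of which 7 were among the 40. With the linked libraries averaged 15 passed, all among the 40. The count was 25 without WT_PB replicate 1, 23 without WT_PB replicate 2, 18 without WT_hyPB replicate 1 or 2, 23 without WT_rePB replicate 2 and 19 without WT_rePB replicate 3.

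The smallest p of the hyperactive comparison was that of AGA-TENM3, whose counts stand above (log2 difference -0.55 ± 0.06 SE, limma adjusted p = 0.000843). It was also lower with re-engineering (-0.31 ± 0.06, limma adjusted p = 0.0171). MKI67-MGMT (chr10:128326423-129267241) followed, between the gene of the proliferation antigen Ki-67 and that of a DNA repair enzyme. It held 104, 86 and 88 sites in WT_PB and 44, 47 and 57 in WT_hyPB, 90, 80 and 73 in WT_rePB and 42, 37 and 47 in WT_rehyPB, without overlap in either pair (log2 difference -0.68 ± 0.08 SE, limma adjusted p = 0.00141). It was called in 19 of 19 alternatives. LZTS1-GFRA2 (log2 difference -0.73 ± 0.13) was called in 18 of 18 and ADAM29-GPM6A (-0.67 ± 0.11, limma adjusted p = 0.0121) in 18 of 19. LZTS1-GFRA2 held 41, 34 and 33 sites in WT_PB and 21, 24 and 24 in WT_hyPB. ST3GAL1-ZFAT (-0.75), SYNCRIP-HTR1E (-0.64) and COL22A1-KCNK9 (-0.63) passed at a limma adjusted p of 0.0326 each but kept the call in only 6 of 19, 8 of 17 and 7 of 18 alternatives. The 1 higher desert was KRR1-PHLDA1 (+0.25 ± 0.05, limma adjusted p = 0.0212), at 0.0541 with linked libraries averaged.

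Re-engineering changed 29 of the 495 deserts (5.86%), 7 higher (1.41%) and 22 lower (4.44%), with 95 at an unadjusted p under 0.05 (19.2%). Of these, 24 also passed per 10000 desert sites, and 4 with the linked libraries averaged. Leaving out 1 library gave 4 to 25 calls: 6 and 4 without WT_hyPB replicates 1 and 2, 12 to 18 without WT_PB replicate 1 or any 1 replicate of WT_rePB or WT_rehyPB. The calls of both comparisons had 9 deserts in common, 22.5% of the 40 and 31.0% of the 29. Both comparisons use the same 12 libraries.

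NYAP2-IRS1 had the smallest p for re-engineering: its 715, 594 and 662 sites in WT_PB (16.7 per 10000 autosomal sites) stood against 617, 676 and 623 in the larger WT_rePB libraries (11.8 ± 0.3 per 10000; log2 difference over both pairs -0.47 ± 0.05, limma adjusted p = 0.00138). LOC124903317-CDKN3 (-0.62 ± 0.09) and KRR1-PHLDA1 (-0.33 ± 0.05) both had a limma adjusted p of 0.00929. These 3 were called in 19 of 19 alternatives. LOC124903317-CDKN3, a stretch of 0.0347 Mb next to the gene of a cell cycle phosphatase, held 67, 56 and 60 sites in WT_PB and 57, 43 and 46 in WT_rePB. The largest rise was that of LOC102723475-LOC101927345 on chromosome 21, with 10, 11 and 7 sites in WT_PB and 14, 18 and 23 in WT_rePB (+0.93 ± 0.18, limma adjusted p = 0.0171; 0.0516 with linked libraries averaged). It kept the call in 13 of 17 alternatives. This desert lies near the start of the chromosome, where the bounds are uncertain as for the longest deserts above, and 0.653 of its 1.13 Mb lay in runs without a site. PDCD6IP-ARPP21 (-0.59) and DYRK2-IFNG (-0.58) kept the call in 12 of 17 and 13 of 18 alternatives, MYCN-CYRIA (-0.83) and NRG1-POFUT3 (-0.62) in 4 of 17 and 3 of 17.

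By chromosome, desert sites of the shallow groups shifted to chromosomes 8 and 12. Chromosome 12 held 3.32% of desert length and 5.27% ± 0.08 of desert sites in WT_PB, but 14.1% ± 1.7 in short_PB, 21.4% ± 0.7 in sym_rePB, 30.5% ± 2.7 in sym_rehyPB and 15.4% ± 4.0 in WT_PBat. Chromosome 8 held 5.73% of desert length and 6.99% ± 0.08 of WT_PB desert sites, but 11.6% ± 1.6 in short_PB, 23.9% ± 4.5 in sym_rePB and 18.3% ± 2.1 in WT_PBat. Limma tested the 6 autosomes with a mean of 10 or more desert sites in the 15 shallow libraries (2, 4, 5, 6, 8 and 12). An autosome could thus enter because it was high in the shallow groups. Chromosomes 1 and 3, with 6.29% and 8.30% of WT_PB desert sites, were not tested. The hyperactive, short, symmetric and piggyBat calls and their shares of those tested are therefore not independent of this filter. Limma called chromosome 12 higher with the hyperactive forms (log2 difference +0.31 ± 0.07, adjusted p = 0.000813, 16.7% of those tested). Chromosome 12 held 14.1% of desert sites in short_PB and 21.7% in short_hyPB, 21.4% in sym_rePB and 30.5% in sym_rehyPB. With the wild-type transposon the pairs gave 5.27% and 5.42% (WT_PB, WT_hyPB), and 5.05% and 5.44% (WT_rePB, WT_rehyPB). Limma called none with re-engineering (0%, and also none at an unadjusted p under 0.05). The short transposon had 2 calls (33.3%), chromosome 12 at +1.72 and chromosome 8 at +0.81. The symmetric transposon had 6 (100%): chromosome 12 at +2.32 and 8 at +1.53, and 2, 4, 5 and 6 lower, at -0.54, -1.16, -1.33 and -0.86. PiggyBat had 4 (66.7%): chromosomes 12 (+1.59) and 8 (+1.44) higher, and 2 (-0.60) and 4 (-1.61) lower. These chromosome values were not computed at matched depth.

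The shift to chromosome 12 lay within 2 deserts. Leaving out the 5 deserts with the highest mean share from all counts, chromosome 12 held 3.83% ± 0.08 of the remaining desert sites in WT_PB, 3.96% ± 0.99 in short_PB, 1.82% ± 1.79 in sym_rehyPB and 4.43% ± 1.48 in WT_PBat. Chromosome 8 stayed apart, with 6.69% ± 0.10 in WT_PB, 8.88% ± 0.84 in short_PB, 13.9% ± 4.5 in sym_rehyPB and 12.3% ± 3.7 in WT_PBat.

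Many desert sites lay in annotated noncoding genes. Their share of desert sites was 32.3% ± 0.3 in WT_PB and 33.0% ± 0.2 in WT_hyPB. With the short transposon the shares were 36.8% ± 0.4 and 39.7% ± 2.2 (hyperactive), with the symmetric transposon 38.4% ± 5.2 and 34.2% ± 3.6 (hyperactive). PiggyBat had the highest share, 46.5% ± 2.0. Outside deserts 16.4% of WT_PB sites and 14.6% of WT_PBat sites lay in such genes. The short transposon was higher by 5.55 points (exact permutation test, adjusted p = 0.01), and by 3.05 at matched totals, where the call was lost (adjusted p = 0.133). PiggyBat was higher by 14.1 points without overlap (exact p = 0.1, the smallest possible), and by 16.006 at matched totals. The hyperactive (+0.0317 points, exact permutation test, adjusted p = 0.979), re-engineering (-0.107, adjusted p = 0.574) and symmetric comparisons (+3.74, adjusted p = 0.118) did not pass.

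The noncoding gene with the most desert sites was LOC105369844 (chr12:75524261-75834768) in all 9 groups, which contains the KRR1-PHLDA1 desert and therefore holds that desert's sites. LOC105370504 (chr14:53320652-53722793) was among the top 3 in the 4 deep groups, with 193, 163 and 184 sites in WT_PB, but held 1, 2 and 2 in short_PB and none in piggyBat. LINC02964, at the TRIB1 end of TRIB1-LRATD2, was among the top 3 in all 5 shallow groups, with 4.29% ± 0.94 of desert sites in WT_PBat and 0.221% ± 0.015 in WT_PB. LOC107986178 on chromosome 4 was among the top 3 in WT_hyPB, short_hyPB and sym_rePB.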

How the data were processed

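The authors deposited a peak list for each of the 27 libraries, without a header; cutadapt 3.4, HISAT2 2.2.1.0 and the builds hg38 and GRCh38.p5 are named in the submitters' processing notes, and the peak caller is not given in the sources used here. The deposited coverage and height values are signal, not scaled to depth. No listed height was under 5. A last column, constant in each file, was taken as the total of reads, which no source states. A site was a peak's start on the plus strand or its end less 3 bases on the minus strand, counted once per library and position. Where both strands had a peak at a position, the taller height was used. Reads carry no molecular identifiers as far as the sources say, so no counting interval is given, and the number of desert sites per library, 61 to 52058, limits the precision. Some items that the naming rule below selects are not reported here.

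Sites on the 22 autosomes were kept, and distances were taken from the gene bounds of RefSeq's GRCh38.p14 table, with 19126 protein-coding genes on autosomes. Runs of 500 kb or more without a site were left out of lengths. No genome sequence was used here, and targets were read from RefSeq promoter windows only. Groups came from the sample labels. Library values were compared by two-sided exact permutation tests within pairs of groups (scipy 1.17.1), and deserts and autosomes with limma 3.58.1 in R 4.3.3, with Benjamini-Hochberg adjustment and a threshold of 0.05. Both were tested on simulated data. In the limma fits the linked libraries count as separate samples, except where averaging is stated.

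Named were the 10 longest deserts, the 5 with the highest mean share over groups, the 5 densest of 1 Mb or more, for each limma comparison up to 6 called deserts with the largest change and the same direction in both pairs, the 3 noncoding genes with the most desert sites per group, and the 5 positions listed in the most libraries. The 5 least dense deserts, the 10 longest by length with sites, the near pairs, the thinned shares of single deserts and the values by height class were added after the data were seen. The limma values of AGA-TENM3, NYAP2-IRS1 and KRR1-PHLDA1, singled out outside this rule, were chosen after they were seen. The members and lists were chosen with earlier results of these data known. Equal replicate numbers did not pair the samples: over 18 pairs with the same number the mean correlation of deviations was 0.0034, and 2 exceeded 0.1.

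Alternatives were other distances (100 and 500 kb), heights of 10 or more, other neighbour distances (1 and 100 kb), another pseudocount (2 sites) and filter, other denominators, matched file totals, averaged linked libraries, a replicate block and leaving out each replicate.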

Additional observations from a re-analysis of the deposited data

Results flagged for a closer look

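For 5 results the size of a difference was not equal in all pairs of groups, by an exact permutation test of the pair differences themselves (16 tests adjusted together).

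The lower desert share of the hyperactive forms differed between pairs (adjusted p = 0.0267): it ranged from -0.703 percentage points for re-engineered piggyBac to -0.0695 with the symmetric transposon. At matched file totals the pairs ranged from -0.787 to +0.0592, and their difference was not tested there.

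The lower desert share of the symmetric transposon was larger with re-engineered piggyBac (-6.89 points) than with its hyperactive form (-6.26 points; adjusted p = 0.032). At matched file totals the same pairs gave -2.42 and -1.86.

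The higher clustered share of the hyperactive forms differed between pairs (adjusted p = 0.0032), from +0.157 points for WT_rehyPB to +17.7 points for short_hyPB. Depth differed between these pairs as well. As near pairs at matched totals, a measure without a test, WT_rehyPB (26.5 to 139 per 10000) lay below WT_rePB (172 to 244). These ranges rest on few expected desert sites, 6.24 per library in WT_rePB, and leave out their sampling.

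The lower clustered share of the re-engineered forms was -0.231 points without and -0.289 points with the hyperactive form (adjusted p = 0.032).

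The higher clustered share of the short transposon was +10.2 points with piggyBac and +27.7 points with hyperactive piggyBac (adjusted p = 0.0267).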

How the results depend on the processing

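Of 1061 recomputed values, 835 were classed as the same, 203 as weaker, 6 as stronger and 17 changed sign. A tested value was the same if it kept its direction and its side of the threshold. It was weaker if it lost a call and stronger if it gained one. A count of calls was classed only by how far it moved from the main count. Single deserts entered only if called at first, so they could gain no call. The causes were not tested except where stated. At 100 kb the height comparison of the hyperactive forms (0.0175) and that over all groups (-0.0682) lost their call, and the noncoding share of the symmetric transposon (10.6) gained one. At 500 kb the hyperactive height difference was -0.0248, clustered shares were 1.53 (hyperactive) and 8.79 (symmetric) without a call and -0.161 for piggyBat, and the hyperactive noncoding share (6.61) was called. With heights of 10 or more, calls were lost for the hyperactive desert share (-0.303), height (0.0204) and clustered share (2.95), the symmetric clustered share (23.7) and the short noncoding share (1.11), the re-engineering height difference was -0.00038, and the symmetric noncoding share was -4.75. Neighbours within 100 kb gave 5.71 for the hyperactive clustered share, no longer called. With long noncoding RNA genes only, the hyperactive noncoding share was -0.240. At matched totals height differences were 0.0148 (hyperactive), -0.0855 (short), -0.0148 (symmetric) and -0.177 (piggyBat), and noncoding shares 3.05 (short) and -1.08 (symmetric).

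The replicate block, which allows no p below 0.0312 with 2 pairs, left the values as they were and ended the calls for the desert share (-5.51 short, -6.57 symmetric), height (0.139, 0.190), clustered share (-0.260 re-engineering, 18.9 short, 37.5 symmetric) and noncoding share (5.55 short). Under the block 24 deserts were called for the hyperactive and 18 for the re-engineered forms, and 0 of the 10 longest for the re-engineering, short and symmetric comparisons. Of the 10 longest by length with sites, 0 passed under the block in any comparison. It changed no other call of a comparison of library values or chromosomes. Among the 10 longest, heights of 10 or more gave 1 (hyperactive), 0 (re-engineering) and 2 (short), and averaged linked libraries gave 0 (re-engineering). Deserts called were 8 per desert sites (hyperactive), 16 and 5 without a filter, 7 and 10 with heights of 10 or more, and 15 and 4 with linked libraries averaged, for the hyperactive and re-engineered forms in that order. Without a filter 4 autosomes were called for the short and 12 for the symmetric transposon. With heights of 10 or more no autosome had enough sites to be tested.

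Leaving out each replicate, the noncoding share ranged from -0.601 to 0.701 (hyperactive) and from 2.40 to 5.00 (symmetric), calls among the 10 longest from 0 to 1 (re-engineering) and from 2 to 5 (short), and called deserts from 18 to 43 (hyperactive) and from 4 to 25 (re-engineered). The shallow groups list 61 to 342 desert sites per library, so single deserts could not be tested there.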
